A study of Mus musculus with 6 samples.

Results

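The genes described are 9 genes of peroxisomal transport and membrane biogenesis in mouse liver: the ABCD transporters Abcd2, Abcd3 and Abcd4, the import receptors Pex5, Pex7 and Pex19, the division factor Pex11a, and the membrane proteins Pxmp2 and Pxmp4. They were taken by symbol, with every probe set annotated to that 1 symbol alone, which gave 19 probe sets of the 34945 single-symbol probe sets on the array. The set was chosen by gene family with earlier results of the same genotype comparison known, and on the log2 difference of Abcd2 between d/d and f/f, which stood out there. Genotype differences of these genes are therefore given as a description and not as tested findings. The livers came from male mice aged 8 weeks, on a mixed background and standard chow, after a fast of 24 h. There were 3 arrays of Mig-6 f/f and 3 of Mig-6 d/d, and Errfi1 is the gene of Mig-6, which restrains receptors of the epidermal growth factor family. The sources used here do not give what drives the deletion in d/d or say if arrays come from separate animals. The p-values therefore reflect only how far these samples spread, which may be technical.

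Peroxisomes shorten fatty acids that are too long, branched or otherwise awkward for mitochondria, and they take part in the making of bile acids and ether lipids. Activated fatty acids enter through ABC transporters of the ABCD family, which work as dimers. The enzymes inside are made in the cytosol and carried in by import receptors that read short targeting signals, while membrane proteins are delivered by a separate receptor. In rodent liver many peroxisomal genes are targets of PPARalpha, the receptor that responds to fatty acids during fasting.

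The promoter table, from RefSeq on GRCm38.p6, held 5 of the 9 genes: Abcd3, Pex5, Pex7, Pex11a and Pxmp4. It did not hold Abcd2, Abcd4, Pex19 or Pxmp2. Shown here are the promoters of Pxmp4 and Pex7, because these are the genes in the table whose arrays separated by genotype, Pxmp4 reading lower and Pex7 higher in d/d. Each runs 5′ to 3′ from 250 bases before the annotated start to 50 after it, and both genes lie on the minus strand, Pxmp4 at chr2:154603624-154603923 and Pex7 at chr10:19907625-19907924. Capitals mark matches on either strand to the GC box GGGCGG, the CCAAT box, and the core of the cAMP response element TGACG.
Pxmp4: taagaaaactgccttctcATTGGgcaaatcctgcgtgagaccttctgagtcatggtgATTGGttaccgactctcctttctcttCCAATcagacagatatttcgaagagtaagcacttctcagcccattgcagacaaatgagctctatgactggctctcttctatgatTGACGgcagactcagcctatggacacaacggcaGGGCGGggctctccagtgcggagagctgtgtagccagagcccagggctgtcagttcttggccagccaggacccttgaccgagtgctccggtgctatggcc
Pex7: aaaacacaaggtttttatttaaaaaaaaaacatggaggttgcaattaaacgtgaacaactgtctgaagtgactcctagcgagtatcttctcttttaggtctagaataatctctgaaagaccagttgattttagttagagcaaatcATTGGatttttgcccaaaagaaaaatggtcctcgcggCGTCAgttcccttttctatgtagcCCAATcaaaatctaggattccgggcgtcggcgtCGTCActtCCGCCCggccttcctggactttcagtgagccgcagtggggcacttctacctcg

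Pxmp4 held 3 CCAAT matches, which began 232, 193 and 167 bases before the start, and Pex7 held 2, at 105 and 44 bases before it. CCAAT occurs in 37.4% of the 32544 promoter sequences of this length. The GC box was matched once in each, where 35.9% of all promoters hold it, and TGACG once in Pxmp4 and 2 times in Pex7, where 20.9% hold it. No listed promoter of the 5 genes matched the nuclear receptor core AGGTCA, found in 16.2% of all promoters, or the E-box CACGTG, found in 7.17%. These are letter matches in the window and not sites.

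Values are deposited linear intensities, and a difference is the d/d mean less the f/f mean of log2(intensity + 16) after quantile normalization, with the standard error of limma and n = 3 per group. They understate the change of dim genes, and probe sets are compared with themselves only, since their brightness depends on the probe. Where a gene had several probe sets, the brightest stood for it in the fit over 13718 genes. All 9 genes passed the filter that left out the dimmest 40% of probe sets, an intensity of about 48.3, as did 17 of their 19 probe sets. The labels held for the targeted gene: Errfi1 read 5371 or more on the f/f arrays and 68.05 or less on the d/d arrays. One f/f array, replicate 3, differed from the rest, with ribosomal control probe sets at 8.36 times the highest other array, and its weight in a fit with array weights was 0.178. Hepatocyte markers matched the labelled tissue, with all 9 named markers above the dim level. RNA of the whole organ was measured, so a lower value can mean fewer cells of a type or less RNA per cell, which cannot be told apart.

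Abcd2 encodes a peroxisomal transporter of very long chain and polyunsaturated fatty acids. It is best known from adipose tissue, brain and adrenal gland, and is usually scarce in liver. On its brightest probe set, 1438431_at, replicates 1, 2 and 3 read 60.5, 66.0 and 38.8 in f/f and 174, 196 and 191 in d/d. The groups did not overlap, and the lowest d/d array stood 2.64 times above the highest f/f array. Mean intensities were 55.1 ± 14.4 in f/f and 187 ± 11.5 in d/d (SD, n = 3), a ratio of 3.40. On the scale with 16 added the difference was 1.54 ± 0.19, or 2.91 times higher in d/d. The f/f arrays lay on both sides of the dim level, so the size of the ratio depends on how much of their signal is background. With 1 added in place of 16 the difference was 1.79, and with 64 added 1.09.

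A second Abcd2 probe set, 1419748_at, read 46.2, 52.5 and 33.9 in f/f and 118, 144 and 166 in d/d. The third, 1456812_at, read 53.0, 53.0 and 49.6 in f/f and 104, 111 and 134 in d/d. Both separated the genotypes, with differences of 1.40 ± 0.17 and 0.97 ± 0.13 in a fit on all single-symbol probe sets. In that fit the brightest had 1.54 ± 0.18. The fourth, 1439835_x_at, read 28.9, 34.7 and 49.6 in f/f and 36.4, 54.0 and 36.0 in d/d. Its groups overlapped, its difference was 0.14 ± 0.15 with a 95% interval of -0.20 to 0.47, and its mean lay under the dim level. Over the 6 arrays the first 3 probe sets correlated with each other at r from 0.970 to 0.991, and each of them with the fourth at r from 0.230 to 0.249. These r describe 6 arrays that share the genotype split. Averaged over its 4 probe sets, Abcd2 had a difference of 1.01.

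**Figure D1:**
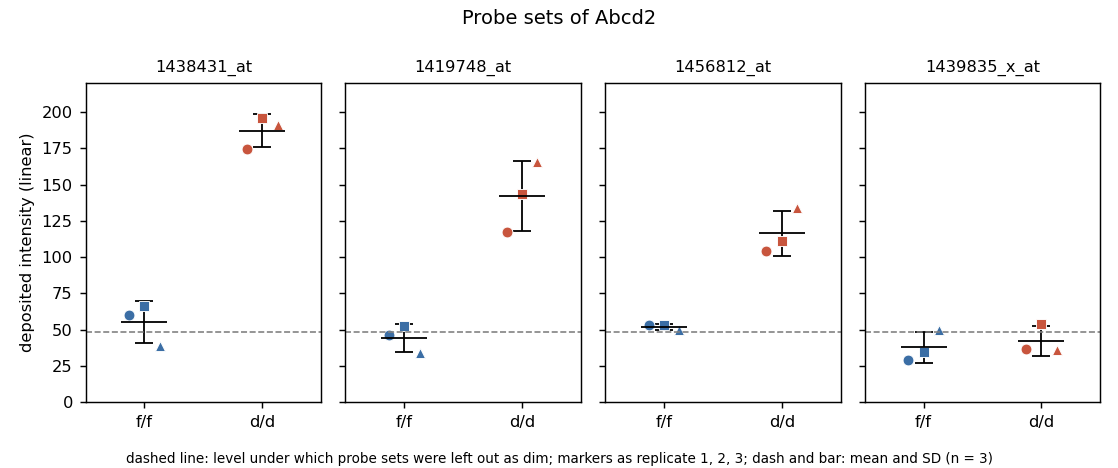
Deposited linear intensity of the 4 probe sets of Abcd2, 1 panel each, for 3 f/f (blue) and 3 d/d (red) arrays, with the mean and SD (n = 3) and the dim level as a dashed line. On 3 probe sets every d/d array lies above every f/f array, while on 1439835_x_at the groups overlap near or under the dim level.

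In the fit over all genes 1 of the 9 genes passed an adjusted p of 0.05 (limma with Benjamini-Hochberg adjustment), Abcd2, where 0.0948% of all genes tested did. In the fit on probe sets 3 of the 19 passed, all of Abcd2, where 0.0744% of all probe sets did. Groups did not overlap in normalized values for 4 of the 9 genes, Abcd2 and Pex7 as higher and Pxmp4 and Pex19 as lower, where 14.7% of all genes separated, 7.9% as higher and 6.79% as lower. Because this contrast brought Abcd2 into view, nothing is read from these shares. Without f/f replicate 3 Abcd2 had 1.33, and it stayed past the threshold. Its adjusted p missed the threshold without f/f replicate 1 or without any one d/d array, at differences between 1.52 and 1.62.

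Abcd3 encodes the abundant peroxisomal membrane protein PMP70, which carries branched and dicarboxylic acids. It read 3630, 3300 and 2439 in f/f and 3283, 3005 and 2795 in d/d. The d/d values lay within the range of the f/f values. The difference was 0.012 ± 0.16 (95% interval -0.35 to 0.38), and its sign turned for the deposited values (-0.028), after scaling to a common median (-0.0069) and without f/f replicate 3 (-0.16). The other Abcd3 probe set, 1443046_at, read 17.5 to 45.8 and had -0.40 ± 0.15, under the dim level.

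Abcd4 shares the family name but is known as a lysosomal protein of vitamin B12 export. Its brighter probe set read 101, 109 and 110 in f/f and 95.1, 108 and 76.2 in d/d. The groups overlapped through d/d replicate 2, and the difference was -0.15 ± 0.12 (95% interval -0.43 to 0.12). Without d/d replicate 3 it was -0.067. Its other probe set had 0.0087 ± 0.13.

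Within the family, the 95% interval of Abcd2, 1.11 to 1.97, lay above those of Abcd3 and Abcd4, which ended at 0.38 and 0.12. As Abcd2 was chosen for its difference, this comparison is a description.

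**Figure D2:**
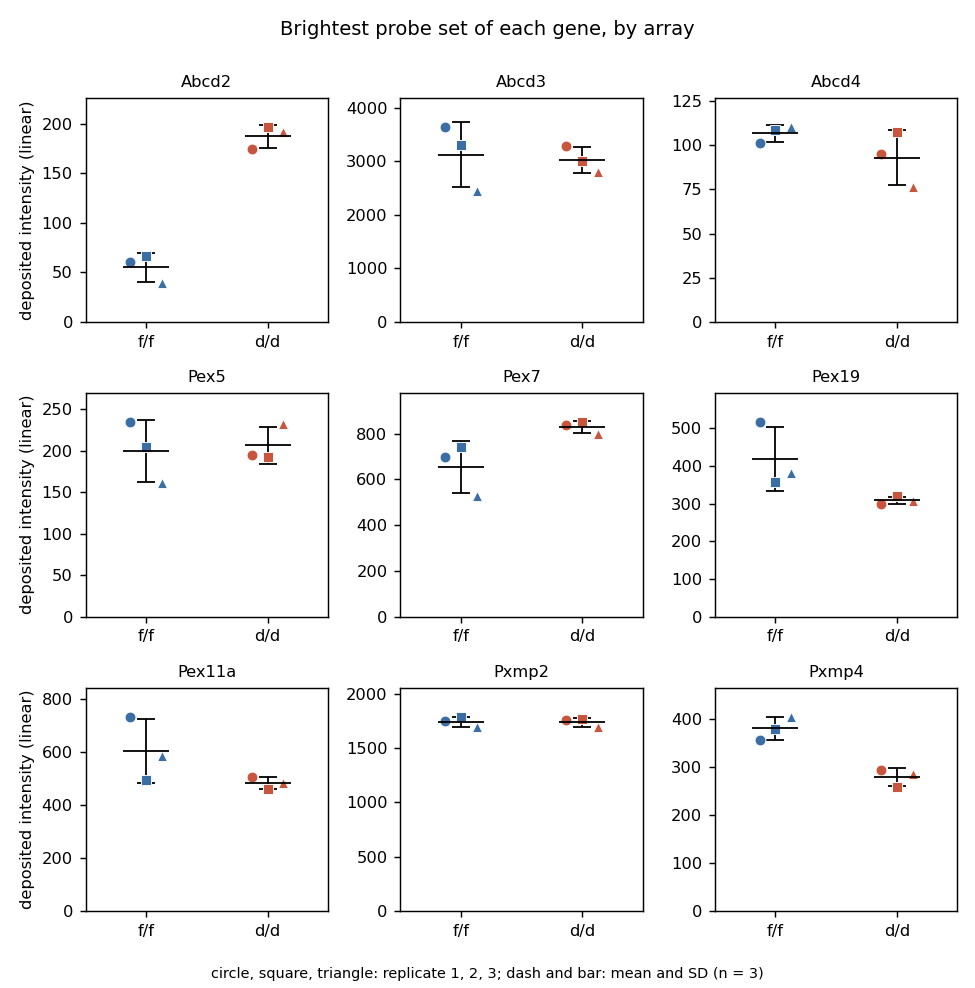
Deposited linear intensity of the brightest probe set of each of the 9 genes on 3 f/f (blue) and 3 d/d (red) arrays, with mean and SD (n = 3) and each vertical axis starting at 0. Abcd2 and Pex7 read higher and Pxmp4 and Pex19 lower on every d/d array than on any f/f array, and the other genes overlap.

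Among the import receptors, Pex5 carries enzymes that bear the C-terminal targeting signal, and Pex7 those that bear the N-terminal one. Pex5 read 234, 205 and 161 in f/f and 195, 192 and 232 in d/d. The values were interleaved, with a difference of 0.071 ± 0.17 (95% interval -0.32 to 0.46). This sign turned without f/f replicate 3 (-0.10), and the other probe set had -0.096 ± 0.12.

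Pex7 read 697, 740 and 527 in f/f and 838, 851 and 800 in d/d, on its only probe set. Every d/d array was higher, though f/f replicate 3 was well below the other f/f arrays. The difference was 0.34 ± 0.14 (95% interval 0.023 to 0.66), or 1.27 times, and 0.20 without f/f replicate 3. The difference did not pass the threshold over all genes.

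Pex19 binds newly made peroxisomal membrane proteins, the ABCD transporters among them, and brings them to the membrane. Its brightest probe set read 516, 357 and 382 in f/f and 299, 320 and 306 in d/d. The d/d arrays were all lower and lay close together, while f/f replicate 1 was the highest by a wide margin. The difference was -0.41 ± 0.15 (95% interval -0.74 to -0.070), and -0.25 without f/f replicate 1. The other probe sets had -0.34 ± 0.14 and -0.26 ± 0.14, so the 3 probe sets of Pex19 lay on the same side, and none passed the threshold.

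Pex11a, which promotes the elongation and division of peroxisomes and is a well known target of PPARalpha, read 734, 494 and 587 in f/f and 505, 460 and 483 in d/d. The groups overlapped through f/f replicate 2. The difference was -0.29 ± 0.15 (95% interval -0.64 to 0.060), and leaving out f/f replicate 1 or 2 gave -0.14 or -0.43. The second probe set gave -0.28 ± 0.16, and the probe sets of Pex11a correlated at r = 0.914 over the 6 arrays, which share the genotype split.

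Of the membrane proteins, Pxmp2 forms a channel for small solutes. It read 1745, 1788 and 1695 in f/f and 1760, 1765 and 1691 in d/d. Group means of the deposited intensity were 1743 ± 46.5 in f/f and 1738 ± 41.3 in d/d (SD, n = 3). The difference was 0.018 ± 0.097 (95% interval -0.20 to 0.24), and it was -0.0038 with the values as deposited.

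Pxmp4 is a small integral membrane protein of the peroxisome. It read 357, 379 and 404 in f/f and 293, 258 and 285 in d/d, so that every d/d array was lower. The difference was -0.42 ± 0.11 (95% interval -0.67 to -0.17), or 1.34 times lower. Its other probe set read 307, 289 and 354 against 253, 221 and 230, with -0.40 ± 0.12, and leaving out any 1 array kept the difference of the brighter one between -0.47 and -0.37. Pxmp4 did not pass the threshold over all genes.

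**Figure D3:**
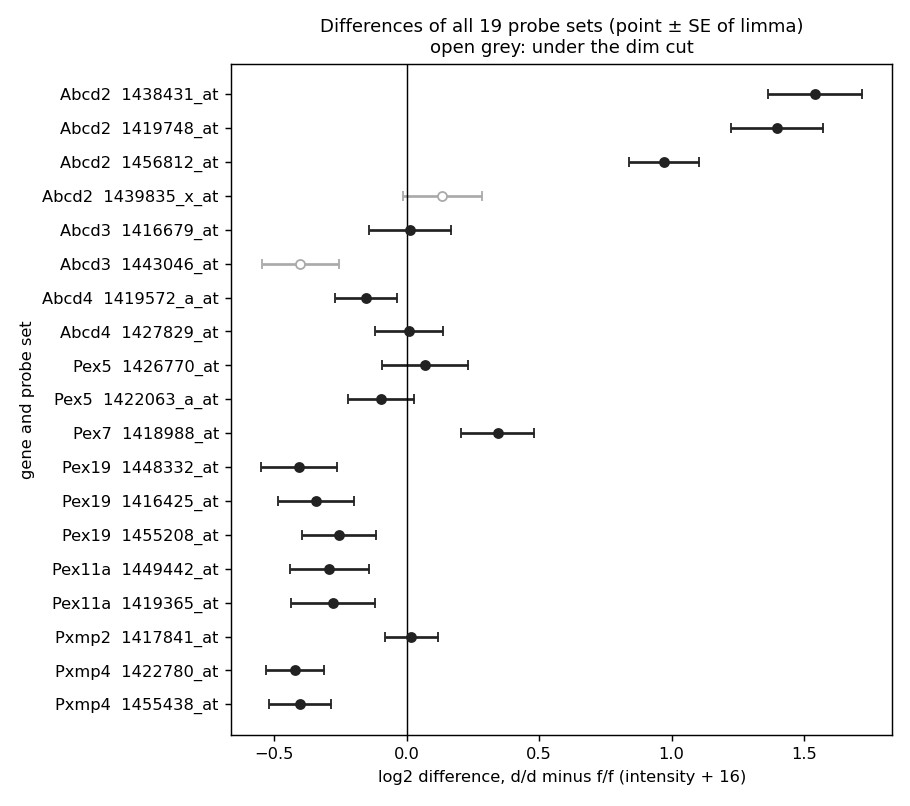
Log2 difference, d/d minus f/f, with the SE of limma for all 19 probe sets in the fit on single-symbol probe sets, where open grey points are under the dim level. The 3 brighter Abcd2 probe sets lie between 0.97 and 1.54, and all others between -0.42 and 0.34.

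The median difference of the 9 genes was 0.012, and that of all genes tested -0.015. With f/f replicate 3 left out the median of the 9 was -0.16, as Abcd3 and Pex5 then turned negative.

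The rest of the peroxisome was described with lists of genes outside the 9. As background to their counts, 7.84% of all genes tested had an unadjusted p under 0.05. This share was 8.44%, 8.45% and 11.2% on leaving out f/f replicate 1, 2 or 3, and 4.88%, 5.02% and 5.40% on leaving out d/d replicate 1, 2 or 3. A share near it is no result about a list. Of 22 other peroxins, fission factors and membrane proteins, 19 were tested and 0 passed an adjusted p of 0.05 (limma with Benjamini-Hochberg adjustment), while 1 (5.26%, where 7.84% of all genes did) had an unadjusted p under 0.05. There were 10 higher and 9 lower, with a median of 0.0075, where 53.5% of all genes were lower. Without f/f replicate 3, 12 were lower, where 52.0% of all genes were. With that array left out 3 had an unadjusted p under 0.05, and the share over all genes rose to 11.2%. Without f/f replicate 1 (8.44% over all genes), 2 had such a p. That 1 gene was Pex16, which takes part in the insertion of membrane proteins. It read 1143, 946 and 1180 in f/f and 894, 758 and 752 in d/d, a difference of -0.43 ± 0.13 (Benjamini-Hochberg adjusted p in limma = 0.405). Its dimmer probe set had 0.28 ± 0.13, so its probe sets disagreed in sign.

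Of 25 genes of peroxisomal beta-oxidation, the pathway fed by the ABCD transporters, 22 were tested. None passed in limma (0 called, and 2 at an unadjusted p under 0.05, or 9.09% where 7.84% of all genes were), and 18 were lower and 4 higher, with a median of -0.055. Over all genes 7342 of 13718 were lower. Without f/f replicate 1, 13 of the 22 were lower, where 52.6% of all genes were. On leaving out f/f replicate 3, d/d replicate 1 or d/d replicate 2, with 11.2%, 4.88% and 5.02% over all genes, 1 gene had an unadjusted p under 0.05. On leaving out d/d replicate 3, with 5.40% over all genes, 0 did. The genes were Crat, which makes carnitine esters for export from the peroxisome, and Nudt7, which cleaves coenzyme A. Crat had -0.42 ± 0.13 (Benjamini-Hochberg adjusted p in limma = 0.429), with -0.17 and -0.071 on its other probe sets. Nudt7 had -0.56 ± 0.24 (Benjamini-Hochberg adjusted p in limma = 0.637). Its f/f replicate 3 read 2704 where the other f/f arrays read 1274 and 1639, and without that array the difference was -0.24.

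The key enzymes of the pathway did not pass the threshold. Ehhadh, the bifunctional enzyme and a strong target of PPARalpha, read 2412, 993 and 898 in f/f and 1660, 960 and 944 in d/d. In both genotypes replicate 1 was far above the others, and the difference was -0.14 ± 0.38, or 0.31 without f/f replicate 1. Hsd17b4, the other multifunctional enzyme, had -0.049 ± 0.14, and 0.070 without f/f replicate 1. Slc27a2, which activates very long chain fatty acids, had 0.13 ± 0.11, with 9305 to 10625 in f/f and 10304 to 11223 in d/d as deposited.

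Of 24 other peroxisomal enzymes 19 were tested and 0 passed in limma. The unadjusted p of 5 was under 0.05, 2 as higher and 3 as lower, where 4.77% and 3.07% of all genes did. The higher ones were Hao1, which oxidizes glycolate, and Ddo, which oxidizes D-aspartate. Hao1 read 983, 892 and 766 in f/f and 1187, 1233 and 1346 in d/d, a difference of 0.52 ± 0.13 (Benjamini-Hochberg adjusted p in limma = 0.268). Ddo had 0.49 ± 0.13 (Benjamini-Hochberg adjusted p in limma = 0.286), and its other probe sets had 0.017 to 0.042. The lower ones were Hacl1, which cleaves 2-hydroxy fatty acids, Pmvk of the mevalonate pathway, and Mlycd, which breaks down malonyl-CoA.

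Hacl1 read 3909, 4120 and 2942 in f/f and 2298, 2721 and 2303 in d/d, a difference of -0.53 ± 0.15 (Benjamini-Hochberg adjusted p in limma = 0.353, and 0.0174 to 0.943 over its alternatives). It passed with array weights (-0.66) and without f/f replicate 3 (-0.68). Pmvk and Mlycd had -0.48 ± 0.18 and -0.25 ± 0.10. Cat, the catalase that clears the hydrogen peroxide made by peroxisomal oxidases, had 0.12 ± 0.11. Leaving out d/d replicate 1 or 2 left 3 genes of this list at an unadjusted p under 0.05, as the share over all genes fell from 7.84% to 4.88% and 5.02%.

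Among 20 genes of long chain fatty acid synthesis and activation, which supply the substrates of the ABCD transporters, 18 were tested and 0 passed in limma. The unadjusted p of 3 (16.7%, where 7.84% of all genes did) was under 0.05. Hacd2, a dehydratase of the elongation cycle, had 0.34 ± 0.10, Acsl5, an acyl-CoA synthetase, 0.37 ± 0.13, and Fads2, the delta-6 desaturase, -0.33 ± 0.11 (Benjamini-Hochberg adjusted p in limma = 0.376, 0.497 and 0.472). In all, 12 were lower and 6 higher, with a median of -0.088, where 53.5% of all genes were lower. Without f/f replicate 3, 15 were lower, where 52.0% of all genes were. With that array left out 9 had an unadjusted p under 0.05, and the share over all genes went from 7.84% to 11.2%. On leaving out d/d replicate 3, with 5.40% over all genes, 1 had such a p.

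Of 10 PPAR receptors and partners 8 were tested, and 0 passed in limma, also with 0 at an unadjusted p under 0.05, where 7.84% of all genes were. Leaving out d/d replicate 3 or f/f replicate 1 gave 1 at an unadjusted p under 0.05, with 5.40% and 8.44% over all genes. Their median was -0.17, and -0.017 without f/f replicate 3. Ppara read 850, 807 and 653 in f/f and 839, 944 and 1044 in d/d. The groups overlapped, with a difference of 0.30 ± 0.14 (Benjamini-Hochberg adjusted p in limma = 0.670).

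**Figure D4:**
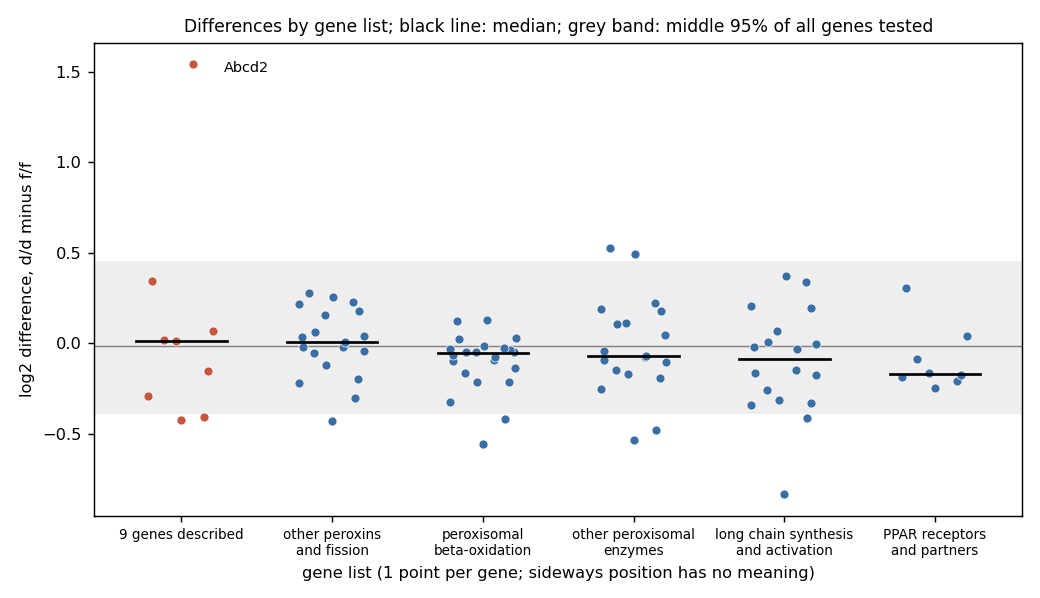
Log2 difference, d/d minus f/f, of each tested gene in 6 lists, with the median of each list as a black line, the median of all genes as a grey line and the middle 95% of all genes as a grey band from -0.38 to 0.45. Abcd2, at 1.54, lies far outside the band, and the medians of the lists run from -0.17 to 0.012.

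Abcd2 is abundant in adipose tissue, so adipocyte markers were read beside it. Of 12 listed markers 9 had a named probe set and 5 were above the dim level. Their summed intensity was 6623 to 9511 in f/f and 11316 to 13842 in d/d, most of it from Car3 and Lpl. Lpl, lipoprotein lipase, was the only marker of this list past the threshold. It read 206, 298 and 180 in f/f and 1184, 861 and 899 in d/d, a difference of 2.07 ± 0.20 in the fit on probe sets. As for Abcd2, every d/d array was higher than any f/f array. Within d/d, Lpl was highest in replicate 1, where Abcd2 was lowest. Car3, a carbonic anhydrase, read 8844, 8888 and 6007 in f/f and 9799, 10483 and 12616 in d/d, and so made up most of the sum. Its difference was 0.52 ± 0.17, and every d/d array was higher. The other 7 markers summed to 315 to 436 in f/f and 319 to 333 in d/d. Among these, Adipoq and Lep read 18.7 to 31.2 and 19.6 to 29.6, under the dim level on all 6 arrays. Cidea and Slc7a10 also had means under it. Retn, Fabp4 and Ucp1 had means above it, and read 47.5 to 111, 68.5 to 103 and 49.4 to 89.8 over the 6 arrays. Their differences were -0.26 ± 0.18, 0.027 ± 0.17 and -0.10 ± 0.15 in the fit on probe sets. The part of other cells in the values of Abcd2 was not tested. Of 11 Kupffer cell (liver macrophage) markers 10 were lower, where 7342 of 13718 genes tested were. Their sums were 3110 to 4368 in f/f and 2672 to 3411 in d/d. C1qa, C1qc and Clec4f, at -0.41, -0.29 and -0.31, had an unadjusted p under 0.05 in limma on probe sets. Of 10 stellate cell markers 7 were lower, with sums of 3636 to 4479 and 2927 to 3715. Dcn and Ecm1, at -0.28 and -0.34, had an unadjusted p under 0.05 in the same fit. In the fit over all genes 2 markers of each list were lower at such a p, where 3.07% of all genes were. The part of either cell type in the lower values of Pxmp4 and Pex19 was not tested. Of the lymphocyte markers, Ms4a1, a B cell surface protein, read 86.7, 58.5 and 64.8 in f/f and 188, 136 and 116 in d/d, a difference of 0.93 ± 0.19 that did not pass the threshold, while the summed lymphocyte markers were 333 to 453 and 356 to 472. Sums were 1682 to 1993 and 1754 to 2049 for endothelial, 231 to 333 and 272 to 310 for bile duct, and 616 to 768 and 637 to 762 for pancreas markers. The sums of these 6 cell types overlapped between the genotypes, which does not show that single markers stayed the same.

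The genes whose normalized values followed Abcd2 most closely over the 6 arrays were P4ha1, Proc, Itih5, Sec22b and Pura (r = 0.998, 0.998, 0.998, 0.996 and 0.995). P4ha1 is a collagen prolyl hydroxylase, Proc the zymogen protein C, and Itih5 a member of the inter-alpha-trypsin inhibitor family. Sec22b is a vesicle fusion protein and Pura a nucleic acid binding protein. The lowest r belonged to Kcnq3, Tubd1 and Gch1 (-0.994, -0.988 and -0.985). As the arrays form a high and a low group for Abcd2, r here mostly describes that split. Itih5 came nearest in size, at 102, 119 and 72.6 in f/f and 260, 294 and 271 in d/d, a difference of 1.39 ± 0.19 (Benjamini-Hochberg adjusted p in limma = 0.0670, and 0.00149 to 0.364 over its alternatives). Like Abcd2 it was lowest in f/f replicate 3. The other probe sets of Itih5 also separated by genotype, but had 0.57 ± 0.12 and 0.62 ± 0.14. Its nearness in size to Abcd2 thus holds for its brightest probe set only. Sec22b had 0.13 ± 0.095 on its brightest probe set and 0.44 ± 0.12 on the other, and separated by genotype on both. P4ha1 had 0.73 ± 0.12, but 0.050 ± 0.12 on its other probe set, which overlapped and was under the dim level. Pura had 0.38 ± 0.11, and -0.11 to 0.40 on its other probe sets. Gch1 had -0.59 ± 0.10, but -0.058 ± 0.13 with overlap on its other probe set. Kcnq3 had -0.38 ± 0.10, and -0.37 ± 0.12 on its other probe set, which was under the dim level.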

How the data were processed

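Per the labels' protocols, Trizol-extracted total RNA of liver was labelled with biotin for Affymetrix arrays. The authors deposited linear intensities for 45101 probe sets on 6 arrays. Probe summarization, background correction and scaling before deposit are not given in the sources used here. Probe sets were named through the platform annotation, and for all 9 genes the symbol matched the RefSeq table of GRCm38.p6. Median intensities of the arrays were 55.6 to 65.4, and precision is limited by having 3 arrays per genotype.

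Intensities were used as log2(intensity + 16) and quantile normalized. The brightest probe set stood for each gene, the dimmest 40% were left out, and genotypes were compared with lmFit and eBayes (limma 3.58.1, R 4.3.3), adjusted by Benjamini-Hochberg over 13718 genes at a threshold of 0.05. A separate fit used all 34945 single-symbol probe sets. The fit was tested on simulated data. Tables and figures used pandas 2.3.3 and matplotlib 3.10.9.

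The 9 genes and all lists were chosen with earlier results of these data known. The rule names the 9 genes, Errfi1, key genes, up to 5 genes per list with the smallest unadjusted p under 0.05, and those with the 5 highest and 3 lowest r with Abcd2. Genes without a single-symbol probe set were not analysed here. In the main fit arrays were not treated as paired by replicate number. Deviations from the group means correlated at -0.0033, -0.14 and -0.47 for arrays of the same number. For arrays of unlike number they correlated at -0.47 to 0.43. With groups of 3 these r cannot decide if the arrays are paired. Outliers within groups were not tested, as groups of 3 are too small.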

Additional observations from a re-analysis of the deposited data

How the results depend on the processing

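The difference of Abcd2 kept its direction in all 17 alternatives, from 1.01 (mean of its probe sets) to 1.79 (pseudocount 1), and passed the threshold in 11. It did not pass with a pseudocount of 1 (1.79), with the replicate number as a block (1.54), or without 1 of 4 arrays, and with 1 array left out it ran from 1.33 to 1.67. The count of the 9 genes past the threshold then went from 1 to 0 with a pseudocount of 1 and with the replicate block, and ran from 0 to 1 with 1 array left out. Calls over all genes, 13, became 20 with the mean of probe sets, 21 with a variance trend, 215 with array weights, 6 with the replicate block and 21 at a threshold of 0.1, and ran from 4, on leaving out d/d replicate 1, to 91, on leaving out f/f replicate 3. The replicate block changed no other call of the 9 genes. Among other peroxisomal enzymes 1 gene, Hacl1, passed with array weights, and 0 to 1 with 1 array left out.

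Small differences turned sign. Abcd3 had -0.028 as deposited, -0.0069 with a common median, -0.19 over its probe sets, -0.10 with array weights, -0.16 without f/f replicate 3 and -0.044 without d/d replicate 1, and up to 0.13 with other arrays left out. Pex5 had -0.013 over its probe sets, -0.092 with array weights, -0.10 without f/f replicate 3 and -0.011 without d/d replicate 3, and up to 0.20 with other arrays left out. Pxmp2 had -0.0038 as deposited, and -0.0064 to 0.035 with 1 array left out. Ehhadh and Hsd17b4 ran from -0.41 to 0.31 and from -0.18 to 0.070, both positive without f/f replicate 1. The cause was not tested. The 3 Abcd2 probe sets past the threshold were also 3 with the values as deposited. With no detection calls in these values, levels near the dim level, as for Abcd2 in f/f, cannot be told from background.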
